A study of Mus musculus with 6 samples.

Results

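Uterine epithelium of Sox17 heterozygous mice on day 4 of pregnancy was set against uterine epithelium of wild-type (WT) mice on day 1. The comparison holds 4 of the 6 arrays of the series: the 2 from heterozygous samples (numbered 253 and 281 in the titles) and the 2 from WT samples on day 1 (302 and 303), chosen by title. The remaining 2 arrays, from WT epithelium on day 4 (277 and 284), gave the end point that WT epithelium reaches, and their values stand beside the others where they help to place the heterozygous ones. The heterozygotes carried a GFP allele of Sox17 and a normal one (Sox17GFP/+), and the day of the vaginal plug was day 1. All samples were epithelium released from pieces of uterus with pancreatin and dispase, measured as total RNA on Affymetrix 3' expression arrays. Genotype and day both differ between the groups compared, so a change from day 1 cannot be divided between them from these 4 arrays. The labels do not say whether an array holds RNA of 1 mouse or of several, so the p-values measure only the spread between these samples.

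On day 1 of mouse pregnancy the uterine epithelium stands under the preovulatory estrogen, and it proliferates, secretes mucins and defence proteins and carries an estrogen-driven programme that includes lactoferrin. Rising progesterone then shuts this programme down, and by day 4 the luminal epithelium has lost Muc1, stopped dividing and switched to genes such as Ihh, Calb1, Hdc and Lrp2, the state in which a blastocyst can attach. SOX17 is an HMG-box transcription factor of this epithelium that rises with progesterone.

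Sox17 itself was measured first, with signals of 7738 and 8671 on the day 1 arrays, 30189 and 28810.3 on the heterozygous arrays and 34794 and 35060.4 on the WT day 4 arrays. Sox17 rose in the heterozygotes by 1.85 ± 0.19 on the log2 scale (limma with Benjamini-Hochberg adjustment over all genes, adjusted p = 0.0164), and both heterozygous arrays lay below both WT day 4 arrays. Its other probe set, a separate group of probes for the same gene, read 2394 and 2478 on day 1, 13304 and 13061 in the heterozygotes and 22781 and 18473 in WT on day 4. Changes here and below are differences of log2(signal + 1) with limma's standard error (SE, n = 2 arrays per group), and "rose" and "fell" mean an adjusted p under 0.05. Signals are per probe set, so they were compared between arrays and never between genes. The sources used here do not say whether these probe sets also read transcripts of the GFP allele, so they do not check the genotype.

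The epithelial label was checked next. Of 12 epithelial markers, 0 rose and 2 fell (5.07% of all genes rose and 4.48% fell). The keratin Krt8 read 29015 and 29696 on day 1 and 28098 and 28452 in the heterozygotes, and the adhesion molecule Epcam read 25634 and 24071 on day 1 and 15568 and 15142 in the heterozygotes. These are among the bright signals of every array. The genes that fell were the keratin Krt7 (-1.44 ± 0.20) and the transcription factor Elf3 (-1.27 ± 0.19). Mean scaling was equal on all arrays, and the median change over all genes was 0.01; centring each array on its median instead moved it to 0.16 and left 1101 calls, 832 of them among the 1737. The median absolute log2 difference within a pair of arrays was 0.32 per gene on day 1, 0.28 in the heterozygotes and 0.59 in WT on day 4. One array stood apart: on WT day 4 array 277 the median signal was 138 and 27.1% of probe sets were under 50, while the other 5 had medians from 66.2 to 78.0 and 41.6% to 44.6% under 50. Both WT day 4 arrays enter the comparison of heterozygotes with day 1 only through the shared estimate of spread. Without either of them, 277 or 284, 2077 genes were called instead of 1737, 1512 of them shared.

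Of 18193 genes, 922 were higher (5.07% of those tested) and 815 lower (4.48%) in the heterozygotes than on day 1, together 9.55%. Of these, 920 higher and 814 lower genes differed by at least 2-fold. The smallest adjusted p was 0.00732, and 4708 genes had an unadjusted p under 0.05. With the prior variance allowed to follow signal (limma with an intensity trend), 2124 genes were higher (11.7%) and 1756 lower (9.65%), with 1624 of the 1737 calls kept. Leaving out any 1 of the 4 arrays ended all calls in the default fit, where the genes at an unadjusted p under 0.05 numbered 3031 to 3428, while the trend fit still called 2259 to 2872. In WT, which shares the day 1 arrays, 1379 genes were higher (7.58%) and 1042 lower (5.73%) on day 4, together 13.3%. The heterozygous and day 1 arrays did not overlap for 62.3% of all genes, and the WT day 4 and day 1 arrays for 56.6%. The heterozygous arrays and the WT day 4 arrays were compared directly in the same fit. No gene passed in the default fit (smallest adjusted p 0.125, 2406 genes at an unadjusted p under 0.05), and 351 were higher and 289 lower in the heterozygotes with the trend (3.52%). When 1 array was left out, 110 to 1397 genes passed with the trend, the fewest without heterozygous array 253 and the most without WT array 284. Statements below that a heterozygous level differs from that of WT on day 4 rest on that trend fit, whose p-values, adjusted in the same way, are named as trend adjusted p.

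The 15 largest increases over day 1, among called genes with a mean signal of at least 500 in the brighter group, started from dim signals, under 50 on both day 1 arrays for all but Mme, Pla2g10, Cyp26a1 and Acod1. Npl, which splits sialic acid, read 3.79 and 11.6 on day 1 and 21748 and 25342 in the heterozygotes (11.56 ± 0.51, adjusted p = 0.00732). The glucose transporter Slc2a3 read 6.95 and 32 on day 1 and 21674 and 23472 in the heterozygotes (10.44 ± 0.72). Lrp2, the endocytic receptor megalin, read 24.2 and 20.1 on day 1 and 12089.7 and 15145 in the heterozygotes (9.20 ± 0.27). In WT on day 4 Npl read 37448 and 35335, Slc2a3 22651 and 22563 and Lrp2 13372 and 18257, so the heterozygous arrays overlapped WT for Slc2a3 and Lrp2 and lay below it for Npl (-0.63 on the log2 scale, trend adjusted p = 0.371). Folds against signals as dim as those of day 1 depend on the pseudocount of 1.

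Mme, the surface peptidase neprilysin, rose from 50.1 and 33.7 to 21894 and 21795 (9.02 ± 0.27), and Gldc, of the glycine cleavage system, from 6.36 and 4.08 to 2271 and 3042 (8.75 ± 0.35). Sptlc3, a subunit of serine palmitoyltransferase that starts sphingolipid synthesis, rose by 7.82 ± 0.21 and Pla2g10, a secreted phospholipase, by 7.53 ± 0.30. Both heterozygous arrays of Sptlc3 (3169 and 2864) lay above both WT day 4 arrays (1778 and 2086). The sugar and inositol transporter Slc5a11 (7.54 ± 0.35), the monocarboxylate transporter family member Slc16a12 (7.30 ± 1.15) and the aquaporin Aqp11 (7.43 ± 0.86) also rose. Acod1, which makes itaconate, was uneven within both groups, with 3811 and 10523 in the heterozygotes against 13 and 154 on day 1 (7.09 ± 1.29, adjusted p = 0.045). Fam107a (8.36 ± 0.45) and the acyl-CoA binding protein Acbd7 (8.25 ± 1.32) rose as well. For Slc5a11, Slc16a12, Acod1 and Fam107a both heterozygous arrays lay below both WT day 4 arrays.

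The remaining genes of the 15, Klf15 and Cyp26a1, also read higher than in WT on day 4, as Sptlc3 did. Klf15, a zinc finger transcription factor, read 1.19 and 3.1 on day 1, 551 and 609 in the heterozygotes and 211 and 225 in WT on day 4 (7.60 ± 0.36 over day 1). Cyp26a1, which clears retinoic acid and is induced by progesterone in this epithelium, read 3.35 and 56.3 on day 1, 2706 and 2713 in the heterozygotes and 299 and 503 in WT (7.42 ± 1.29 over day 1, adjusted p = 0.0413). Both heterozygous arrays exceeded both WT day 4 arrays for Klf15 and Cyp26a1, but the differences of 1.41 ± 0.36 and 2.80 ± 1.29 did not pass (trend adjusted p = 0.309 and 0.127).

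**Figure D1:**
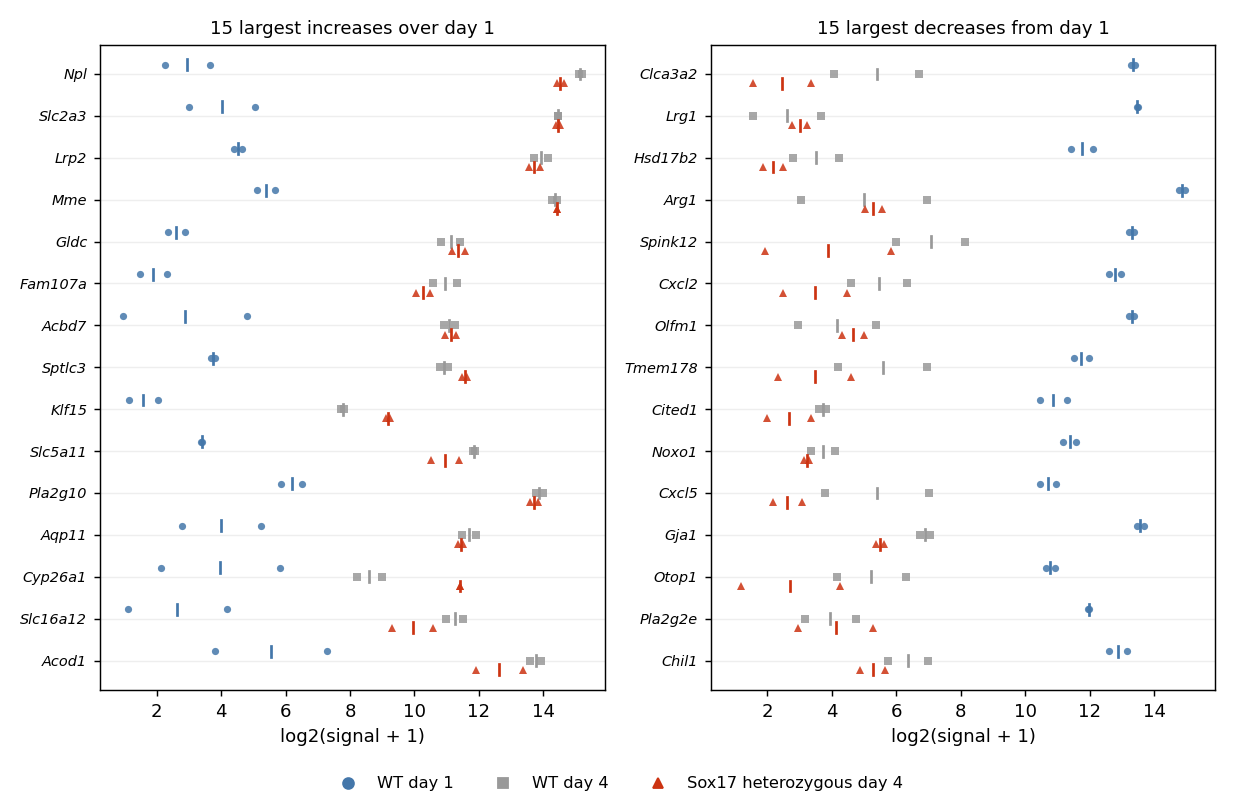
Signals as log2(signal + 1) on each array (points; bars are group means) for the 15 genes with the largest increase and the 15 with the largest decrease from WT day 1 to Sox17 heterozygous day 4 among called genes with a mean signal of at least 500 in the brighter group. Blue circles are WT day 1, grey squares WT day 4 and red triangles heterozygous day 4. The red and blue points of a gene do not overlap, by the rule for this listing. Among the increases, Sptlc3, Klf15 and Cyp26a1 show the red pair above the grey pair.

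The 15 largest decreases ended at signals under 50 on both heterozygous arrays for all but Spink12 (2.78 and 56). Clca3a2, a calcium-activated chloride channel regulator, fell from 9949 and 10898 to 9.23 and 1.96 (-10.89 ± 1.09). Lrg1, a secreted acute-phase glycoprotein, fell from 11254 and 11666 to 5.77 and 8.42 (-10.49 ± 0.75), and the arginase Arg1 from 31662 and 27821 to 45.5 and 31.4 (-9.58 ± 1.35). Hsd17b2, which inactivates estradiol, fell by 9.59 (SE 0.60) on the log2 scale, from 4405 and 2764 to 2.66 and 4.63. For each of these genes both heterozygous arrays were under a signal of 50. In WT on day 4 Clca3a2 read 103 and 15.8 and Arg1 123 and 7.17, with the higher value on array 277.

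The neutrophil-attracting chemokines Cxcl2 (-9.32 ± 0.91) and Cxcl5 (-8.09 ± 1.16) and the chitinase-like protein Chil1 (-7.61 ± 0.55) fell in the same range. So did the secreted glycoprotein Olfm1 (-8.65 ± 0.86), the protease inhibitor Spink12 (-9.43 ± 1.52), the transcriptional co-regulator Cited1 (-8.19 ± 0.58) and the gap junction protein Gja1 (-8.08 ± 0.23). Noxo1, an organizer of NADPH oxidase (-8.16 ± 0.34), the proton channel Otop1 (-8.06 ± 1.28), the phospholipase Pla2g2e (-7.86 ± 0.97) and Tmem178 (-8.27 ± 1.23) complete the 15. Gja1 went lower in the heterozygotes (40.6 and 48) than in WT on day 4 (131 and 106), a difference of -1.39 ± 0.23 (trend adjusted p = 0.0133).

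The position of the heterozygous arrays between the WT groups was described over the 10305 genes whose WT day 1 and WT day 4 arrays did not overlap. Both heterozygous arrays lay at or beyond the nearer WT day 4 array for 32.2% of these genes, between the WT groups for 24.8%, and within or before the day 1 range for 13.99%, while the remaining 29.0% were split. These places are a description without a test, and both changes from day 1 share the day 1 arrays. The 8 genes with the largest WT change in each of 3 classes were listed by position, the heterozygous change from day 1 divided by the WT change from day 1, among genes called in WT. Since the changes formed the classes, the differences and p-values given for these genes describe them and are no test of the classes.

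Genes at a position of 0.75 or above included Npl, Lrg1, Slc2a3, Arg1, Lrp2, Olfm1, Fam107a and Mme, all described above. At positions from 0.25 to under 0.75 were genes that had moved part of the way. B3gnt5, which starts lacto-series glycolipids, read 39.9 and 49.9 on day 1, 2213 and 3587 in the heterozygotes and 11719 and 12553 in WT on day 4. It rose in the heterozygotes by 5.95 ± 0.32 and was lower than in WT on day 4 (difference -2.11 ± 0.32, trend adjusted p = 0.00106). Pglyrp1, a peptidoglycan-binding defence protein, fell from 5333 and 6623 to 120.3 and 86.9, with 29.8 and 7.78 in WT on day 4. The lung collectin Sftpd fell from 28672 and 30377 to 1926 and 889, with 386 and 123 in WT. Both genes were higher in the heterozygotes than in WT on day 4 (by 2.65 ± 0.66 and 2.58 ± 0.69, trend adjusted p = 0.0226 and 0.0123). The ganglioside synthase B4galnt1 (-4.36 ± 0.44) and Apobec2 (-5.40 ± 0.84) fell, and the exchanger Slc24a4 (2.88 ± 0.46) rose, and the heterozygous pair lay between the WT pairs for all 3. Tmod2, an actin-capping protein, read 0.883 and 32.8 on day 1, 103 and 189.9 in the heterozygotes and 1397 and 2664 in WT and did not pass against day 1 (adjusted p = 0.176). Another of its probe sets rose from 4.09 and 5.9 to 101 and 145, with 802 and 820 in WT. That change was 4.37 ± 0.31 (adjusted p = 0.0134 in a limma fit of every probe set), so the probe sets of Tmod2 differ on whether it rose.

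**Figure D2:**
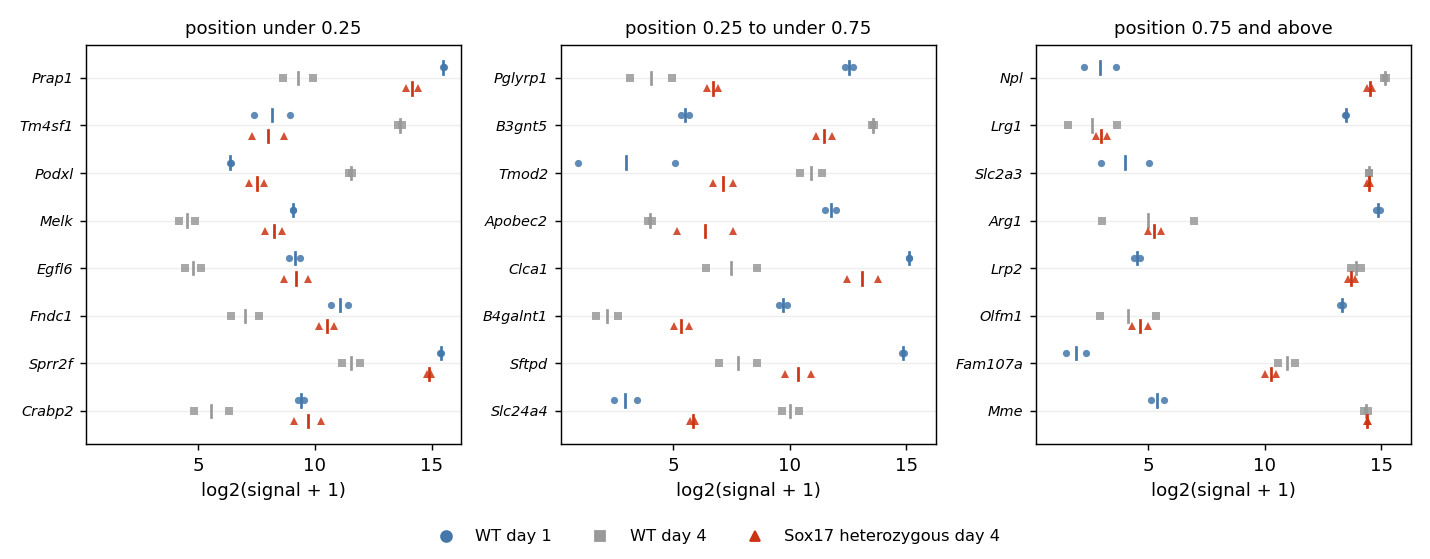
Signals as log2(signal + 1) on each array (points; bars are group means) for 24 genes called between WT day 1 and WT day 4, 8 per class of heterozygous position. In the left panel the red triangles (Sox17 heterozygous day 4) lie near the blue circles (WT day 1), in the middle panel between them and the grey squares (WT day 4), and in the right panel at the grey squares.

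At positions under 0.25 the heterozygous mean lay nearer to day 1 than to WT on day 4, by the definition of the class. Prap1, a secreted proline-rich acidic protein of gut and uterine epithelium, read 45700.0 and 47369.9 on day 1, 21826 and 15448 in the heterozygotes and 969.8 and 399 in WT on day 4. The highest signals of any probe set on the day 1 arrays were 45700 and 47537, so Prap1 stood at or near the top of the scale there. Whether its fall from day 1 was understated for that reason was not tested. Tm4sf1, a membrane protein of the tetraspanin type, read 166 and 479 on day 1, 155 and 403 in the heterozygotes and 11979 and 13528 in WT. Podxl, a sialomucin of apical membranes, read 82.3 and 81.3 on day 1, 145 and 224 in the heterozygotes and 3115 and 2792 in WT. The heterozygous and WT day 4 arrays were far apart for all 3 genes: Prap1 was higher by 4.88 ± 0.50 (trend adjusted p = 0.000108), and Tm4sf1 and Podxl were lower (-5.66 ± 0.71 and -4.03 ± 0.28, trend adjusted p = 0.000294 and 0.000117). Their changes from day 1 did not pass, with 95% confidence intervals of -2.67 to -0.01 for Prap1, -2.09 to 1.74 for Tm4sf1 and 0.37 to 1.89 for Podxl. The WT changes of -6.22, 5.49 and 5.15 lay outside these intervals. The rule that picked these genes made that likely, so it is a description and no test. For Prap1 both heterozygous arrays were nevertheless below both day 1 arrays, and for Podxl both were above.

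Crabp2, which carries retinoic acid to its receptor, read 732 and 624 on day 1, 1239 and 548 in the heterozygotes and 78.5 and 27 in WT (higher than in WT on day 4 by 4.13 ± 0.67, trend adjusted p = 0.00231). Melk, a kinase of dividing cells, read 528 and 526 on day 1, 385 and 231 in the heterozygotes and 16.9 and 27.6 in WT. Egfl6, a secreted EGF-like protein, read 479 and 663 on day 1, 829.9 and 409 in the heterozygotes and 20.2 and 33.4 in WT. Fndc1 read 1665 and 2771, then 1817 and 1146, and 194 and 82.7 in WT on day 4. In WT all 4 fell. The heterozygous signals overlapped those of day 1 for Crabp2, Egfl6 and Fndc1 and lay under them for Melk (-0.82 ± 0.38, adjusted p = 0.28).

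Counts of called genes in this and the later lists are to be read beside the 5.07% of all genes that rose and the 4.48% that fell. Of 16 estrogen-induced epithelial genes, 10 fell, none rose and 6 did not pass (4.48% of all genes fell), with a median log2 change of -3.90 against 0.01 over all genes. In WT, 13 fell with a median of -5.38. Of 15 members whose WT groups were apart, the heterozygous arrays lay between the WT groups for 10 and had reached the WT day 4 range for 5. Over all genes whose WT groups were apart, these shares were 24.8% and 32.2%. The summed signal of the list was 224151 and 238257 on day 1, 68384 and 47331 in the heterozygotes and 17201 and 6916 in WT on day 4.

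Muc1, the mucin that covers the luminal surface, fell from 14415 and 16108 to 2085 and 1988 (-2.90 ± 0.27, adjusted p = 0.0143) and read 728 and 1089 in WT on day 4. The transmembrane mucin Muc4 fell from 21157 and 18731 to 651 and 485 (-5.14 ± 0.39), with 277 and 145 in WT. Padi1, a peptidylarginine deiminase, fell from 17656 and 19294 to 993 and 690.0 (-4.48 ± 0.58), with 249.6 and 84.5 in WT. All 3 stayed above the WT day 4 arrays, by 1.19 ± 0.27, 1.49 ± 0.39 and 2.50 ± 0.58 (trend adjusted p = 0.00781, 0.0144 and 0.00732). The iodide and chloride exchanger Slc26a4 (30.0 and 43.3 against 5828 and 4326 on day 1) and the connexin Gjb2 (1212 and 1340.4 against 7432 and 8000.1) fell to signals close to those of WT on day 4 (60.3 and 37.6 and 1035 and 1045).

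Lactoferrin, Ltf, read 27189.5 and 11735 in the heterozygotes and 35131 and 37791 on day 1 (-1.03 ± 0.97, adjusted p = 0.601), with 8351 and 1406 in WT on day 4. Clca1 read 13989 and 5589 against 35538 and 35672 on day 1 and 383 and 82.9 in WT on day 4 (-2.01 ± 0.88 from day 1, adjusted p = 0.255). Its other, dimmer probe set fell from 1522 and 1666 on day 1 to 144 and 66.4 in the heterozygotes, with 18.8 and 26.4 in WT on day 4. That change was -4.01 ± 0.45 (adjusted p = 0.024 in a limma fit of every probe set), so the 2 probe sets of Clca1 differ on whether it fell. The heterozygous array 253 was the higher of its pair for both genes and array 281 the lower, and both arrays were under both day 1 arrays. Clca1 was higher than in WT on day 4 by 5.62 ± 0.88 (trend adjusted p = 0.000819); for Ltf the trend adjusted p was 0.078. The water channel Aqp5 read 771 and 765 on day 1, 416 and 188 in the heterozygotes and 33.6 and 6.25 in WT (trend adjusted p against WT on day 4 = 0.00978).

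The small proline-rich proteins, which are cross-linked into the cornified envelope of stratified epithelia and are induced by estrogen in the uterus, had unlike values. Sprr2f read 43299 and 42696 on day 1, 31941 and 28634 in the heterozygotes and 3934 and 2263 in WT on day 4. Its day 1 signals were near the highest of those arrays (45700 and 47537). The change from day 1 was -0.51 ± 0.33 (95% confidence interval -1.38 to 0.37), and the gene was higher than in WT on day 4 by 3.34 ± 0.33 (trend adjusted p = 0.000117). Sprr2d fell from 11328 and 17284 to 156 and 139 (-6.56 ± 1.21, adjusted p = 0.0467), with 436 and 37.8 in WT, and Sprr1a from 3542 and 2646 to 80.7 and 94.6 (-5.11 ± 0.93). Members of the Sprr2 family are near-identical in sequence, so a probe set may read more than 1 of them. Over the cornified envelope list, 2 of 15 measured genes fell (4.48% of all genes fell) and 0 rose.

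Because Sprr2f and Sprr2d lie near each other in the genome and had unlike values, the 150 bases before their start sites (RefSeq, GRCm38.p6, 5′ to 3′ on the gene's strand) are shown, with the octamer motif ATTTGCAT and the TATA motif TATAAA in capitals. The Sprr2f stretch is chr3:92365037-92365186 on the + strand and the Sprr2d stretch chr3:92338990-92339139 on the + strand.
Sprr2f: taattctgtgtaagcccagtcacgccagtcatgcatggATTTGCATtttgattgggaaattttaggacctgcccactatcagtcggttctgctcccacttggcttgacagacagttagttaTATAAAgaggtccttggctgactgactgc
Sprr2d: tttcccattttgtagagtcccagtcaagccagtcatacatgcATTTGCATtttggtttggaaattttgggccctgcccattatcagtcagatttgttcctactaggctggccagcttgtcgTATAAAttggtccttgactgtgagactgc
Both stretches hold both motifs. On either strand, the octamer was found in 1.02% and the TATA motif in 8.08% of 27025 promoter stretches of the same length, and in 4 and 11 of the 14 stretches that could be matched for the cornified envelope list. A match is a description, not a binding site.

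Of 16 progesterone-induced genes, 10 rose, 0 fell and 6 did not pass (5.07% of all genes rose), with a median log2 change of 2.04; in WT 9 rose with a median of 2.27. Of 15 members whose WT groups were apart, the heterozygous arrays had reached the WT day 4 range for 3 and lay between the WT groups for 6. They stayed within or before the day 1 range for 4 (Ptch1, Edn3, Fst and Ttr) and were split for 2. The shares over all such genes were 32.2%, 24.8%, 13.99% and 29.0%, in the same order. Fst was among the dim genes removed by a filter on the lowest part of the mean signal. Ihh, the hedgehog ligand that signals from epithelium to stroma, rose from 52.3 and 42.5 to 1929 and 1482 (5.14 ± 0.27, adjusted p = 0.00757), with 1428 and 1868 in WT on day 4. The homeobox gene Msx1 rose from 3211 and 3242 to 14999 and 15359.7 (2.23 ± 0.20), with 16048 and 19181 in WT. Hdc, which makes histamine, rose from 1384 and 2426 to 22351 and 21708 (3.59 ± 0.33), with 27511 and 26568 in WT. Heterozygous and WT day 4 arrays overlapped for Ihh, while both heterozygous arrays were just under both WT arrays for Msx1 and Hdc, differences that did not pass (trend adjusted p = 0.519 and 0.541). No member of the list passed between heterozygotes and WT on day 4, also with the trend.

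Among steroid receptors and their partners, 4 of 14 rose and 0 fell. The progesterone receptor Pgr rose from 499 and 1269 to 7657 and 8612 (3.35 ± 0.51, adjusted p = 0.0328), with 4469.8 and 6175 in WT on day 4. The receptor co-chaperone Fkbp5 rose by 3.31 ± 0.36, the transcription factor Gata2 by 1.59 ± 0.20 and the membrane component Pgrmc1 by 1.26 ± 0.23. The estrogen receptor Esr1 read 8849.5 and 12077 on day 1 and 13485 and 11831 in the heterozygotes, and the groups overlapped (0.29 ± 0.29, adjusted p = 0.627).

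The luminal epithelium list had 3 of 7 genes higher and 1 lower. The calcium-binding protein Calb1 rose from 1545 and 1828 to 39895 and 39316 (4.56 ± 0.23), with 65174 and 51482 in WT. Wnt11 rose from 95.3 and 191 to 2136 and 2626 (4.12 ± 0.39), with 3585 and 3453 in WT, and the growth factor receptor Met fell (-2.63 ± 0.32). Lpar3, a lysophosphatidic acid receptor needed for the timing of implantation, rose from 915 and 815 to 7253 and 7685 (3.11 ± 0.20) and was lower than in WT on day 4, where it read 13019 and 11638 (difference -0.72 ± 0.20, trend adjusted p = 0.0226). In the glandular list, 1 of 13 rose and 3 fell, Lif among them. Aldh1a1, a retinaldehyde dehydrogenase, rose from 109 and 130.1 to 1145 and 817 (3.01 ± 0.26), above both WT day 4 arrays (452 and 438; trend adjusted p = 0.0516). Sox9 (-3.03 ± 0.42) and Foxa1 (-3.93 ± 0.66) fell, and the gland factor Foxa2 read 62.8 and 126 on day 1 and 77.6 and 101 in the heterozygotes, overlapping.

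Of 24 receptivity and implantation genes, 2 rose (Msx1 and Lpar3) and 4 fell (Lif, Hbegf, Ptgs2 and Muc1), with a median of -0.15 (0.00 after centring each array on its median). The cytokine Lif, which is required for implantation, fell from 5297 and 5574 to 93.7 and 192 (-5.33 ± 0.41, adjusted p = 0.0111), with 82 and 109 in WT. The EGF family ligand Hbegf, a signal at the attachment site, fell from 13174 and 10953 to 4872 and 4069 (-1.43 ± 0.22) and stayed above WT on day 4 (1388 and 1396) by 1.68 ± 0.22 (trend adjusted p = 0.000565). Fgf18, a growth factor sent to the stroma, read 95 and 96.3 on day 1, 150.1 and 257 in the heterozygotes and 593 and 716 in WT, and was lower than in WT on day 4 (difference -1.72 ± 0.33, trend adjusted p = 0.0293).

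All 26 measured genes of mitosis read higher on both heterozygous arrays than on both day 1 arrays, which held for 32.2% of all genes, and 9 passed (5.07% of all genes rose), with 16 passing with the trend. The median log2 change was 2.78, against 0.89 in WT, where 5 rose and 1 fell. The summed signal of the list was 1864 and 1424 on day 1, 5253 and 2130 in WT on day 4 and 9509 and 9732 in the heterozygotes. By this sum day 1 was the lowest group for the list, although the background above describes day 1 epithelium as dividing. By the list's median log2 signal, the day 1 arrays (5.85 and 5.47) overlapped WT on day 4 (7.33 on array 277 and 5.83 on array 284). The cause of the low day 1 sum was not tested. Both heterozygous arrays were above all 4 WT arrays for 21 members, against 8.66% of all genes. The count depends on the shared spread: without either WT day 4 array, 277 or 284, 18 members passed. On array 277, 25 of the 26 genes read higher than on array 284. With the trend and 1 of the 4 arrays left out, 5 to 13 passed.

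Ube2c, the ubiquitin-conjugating enzyme of the anaphase-promoting complex, rose from 94.9 and 88.5 on day 1 to 1175 and 1267 (3.72 ± 0.39, adjusted p = 0.0166), with 578 and 288 in WT on day 4, a difference of 1.58 ± 0.39 (trend adjusted p = 0.028). Topoisomerase Top2a rose from 103 and 115 to 1222 and 1412 (3.58 ± 0.36), with 816 and 439 in WT; another of its probe sets, under a signal of 50 on every array, had the opposite sign. The checkpoint kinase Bub1 rose from 17.2 and 23.6 to 192 and 194 (3.19 ± 0.23) and fell to 2.67 and 2.79 in WT, with all its WT signals under 50. The spindle kinase Ttk rose from 3.08 and 1.76 to 107 and 122 (5.10 ± 0.61), with 86.3 and 27.4 in WT. The cyclin-dependent kinase Cdk1 rose from 57.6 and 68.8 to 516 and 624 (3.15 ± 0.56), with 249 and 85 in WT. The proliferation marker Mki67 read 48.8 and 46.4 on day 1, 490.4 and 504 in the heterozygotes and 102 and 16.8 in WT and did not pass against day 1 (3.36 ± 0.87, adjusted p = 0.0925), while its trend adjusted p was 0.00922 against day 1 and 0.0318 against WT on day 4.

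Of DNA replication genes 11 of 26 rose (5.07% of all genes rose) and 0 fell, with a median of 1.32 (5 higher and a median of 0.77 in WT). With the trend 18 rose, and 6 with median-centred arrays. Both heterozygous arrays were above all 4 WT arrays for 15 members, against 8.66% of all genes. The catalytic polymerase subunit Pole rose from 3.22 and 5.41 to 187 and 109.9 (4.79 ± 0.44), with 10.4 and 5.94 in WT on day 4 (trend adjusted p against WT on day 4 = 0.0597). The subunit Pola1 rose from 62.6 and 87.9 to 808 and 655 (3.28 ± 0.31), with 256 and 179.6 in WT (trend adjusted p = 0.0262). The primase Prim1 (3.03 ± 0.31) and thymidylate synthase Tyms (2.89 ± 0.33) rose as well, Prim1 to 1171 and 1225 (WT day 4 858 and 1146) and Tyms to 103 and 112 (WT day 4 159 and 203). Ribonucleotide reductase Rrm2, also a list member, read 184 and 180.4 on day 1, 732 and 518 in the heterozygotes and 116 and 92.9 in WT (1.75 ± 0.27 over day 1, trend adjusted p against WT on day 4 = 0.00374). Of 22 ribosome biogenesis genes none passed in the default fit and 6 rose and 1, Gar1, fell with the trend. Myc, which drives growth and ribosome biogenesis, read 418 and 563 on day 1, 1192 and 979 in the heterozygotes and 213 and 107 in WT (trend adjusted p = 0.0299 and 0.00166 against day 1 and WT day 4).

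The promoters of 3 of these mitotic genes are shown because members of the list moved together and such promoters are known to share a pair of elements, the CCAAT box (CCAAT, or ATTGG on the other strand) and the cell cycle genes homology region (TTTGAA or TTCAAA). The stretches are the 150 bases before the start site in RefSeq (GRCm38.p6), chr2:164769779-164769928 on the + strand for Ube2c, chr11:99024190-99024339 on the - strand for Top2a and chr10:69352913-69353062 on the - strand for Cdk1, with both elements in capitals.
Ube2c: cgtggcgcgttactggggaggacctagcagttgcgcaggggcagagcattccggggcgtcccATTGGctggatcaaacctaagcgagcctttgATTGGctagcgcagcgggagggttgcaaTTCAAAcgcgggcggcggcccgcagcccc
Top2a: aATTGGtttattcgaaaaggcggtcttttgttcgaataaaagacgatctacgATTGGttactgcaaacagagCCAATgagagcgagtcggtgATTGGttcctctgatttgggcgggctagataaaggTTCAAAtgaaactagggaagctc
Cdk1: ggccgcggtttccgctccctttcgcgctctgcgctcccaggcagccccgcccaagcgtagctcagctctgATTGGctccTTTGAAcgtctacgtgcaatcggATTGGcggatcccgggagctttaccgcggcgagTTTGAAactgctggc
A CCAAT box was found on either strand in 17 of 22 matched mitosis promoters, against 25.3% of 27025 promoters, and the TTTGAA element in 7 of 22, against 9.24%. Both together were found in 6 of 22, against 2.32%. DNA replication promoters held the CCAAT box in 13 of 22 cases and both elements in none.

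**Figure D3:**
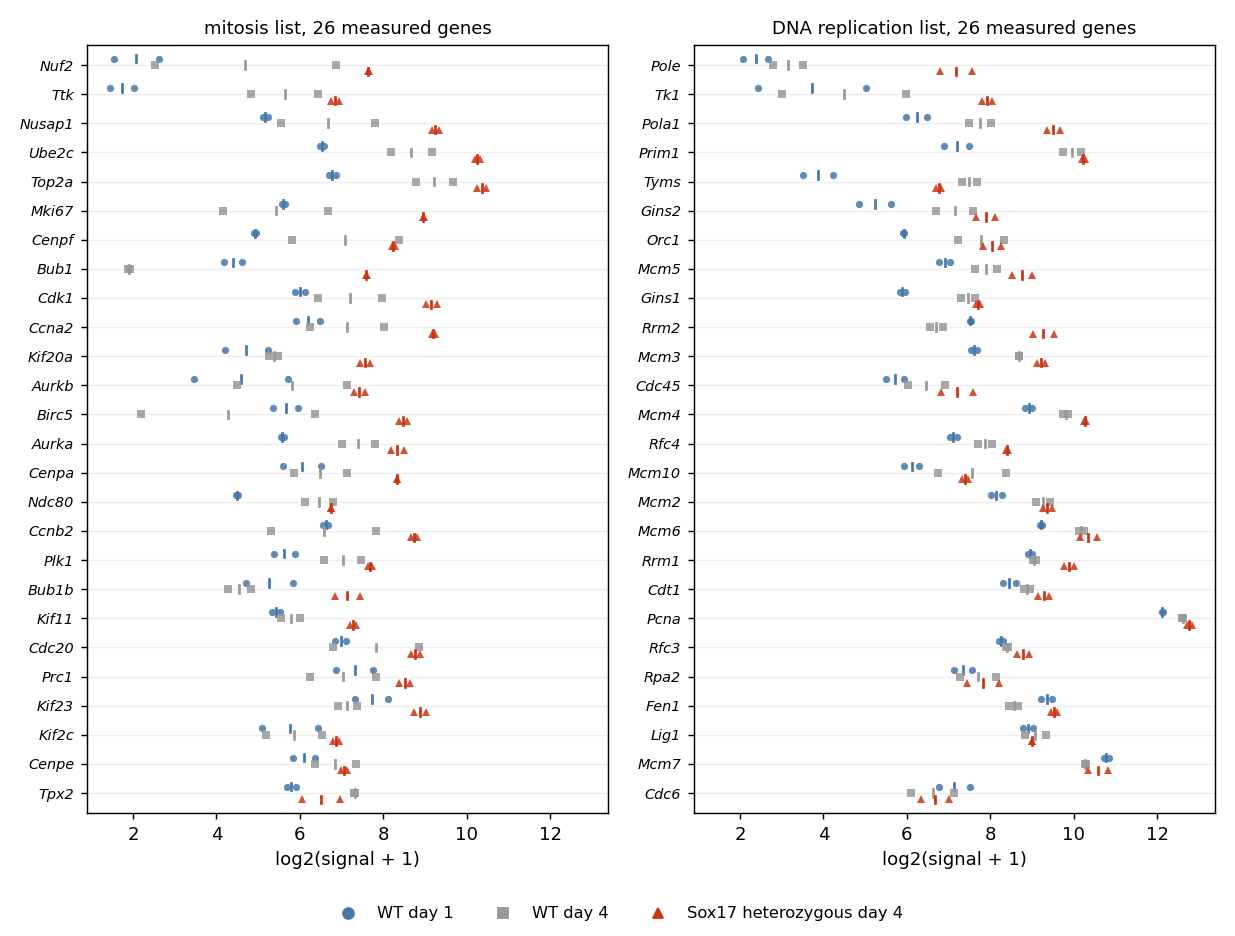
Signals as log2(signal + 1) on each array (points; bars are group means) for all 26 measured mitosis genes (left) and all 26 measured DNA replication genes (right), ordered by the change from WT day 1 to Sox17 heterozygous day 4. In the left panel every pair of red triangles (heterozygous) lies to the right of the blue circles (WT day 1), and the grey squares (WT day 4) are spread, with array 277 often the higher one.

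Of 25 interferon response genes, 12 fell (4.48% of all genes fell) and 0 rose, with a median of -2.28 (21 fell with the trend). In WT 8 fell with a median of -1.63. Both heterozygous arrays were under both day 1 arrays for 23 members, against 30.1% of all genes. Of 24 members whose WT groups were apart 20 had reached the WT day 4 range, against 32.2% of all such genes. The antiviral synthetase Oas1a fell from 11541 and 9279 to 1686 and 1634 (-2.64 ± 0.22, adjusted p = 0.0127), with 1809 and 1528 in WT. Oasl1 fell from 4901 and 2824 to 291 and 239 (-3.81 ± 0.39) and the chemokine Cxcl10 from 343 and 195 to 25.5 and 31.1 (-3.15 ± 0.34). The RNA sensor Ifih1 fell from 2767 and 2073 to 653 and 693 (-1.83 ± 0.23), below WT on day 4, where it read 1205 and 1309.6 (difference -0.90 ± 0.23, trend adjusted p = 0.021).

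The Oas1a promoter is shown as the example of this group, 150 bases before the RefSeq start site (GRCm38.p6, chr5:120907526-120907675 on the - strand), with matches to the interferon-stimulated response element core (GAAA, any 2 bases, GAAA) in capitals.
Oas1a: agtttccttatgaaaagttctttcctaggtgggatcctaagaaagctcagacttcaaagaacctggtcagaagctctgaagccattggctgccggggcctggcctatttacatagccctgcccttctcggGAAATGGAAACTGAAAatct
That core was found on either strand in 8 of 21 matched promoters of the list, against 1.60% of all promoters.

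Of 21 innate defence and inflammation genes 10 fell (4.48% of all genes fell) and none rose, with a median of -2.68 (9 lower and a median of -2.16 in WT). Besides Lrg1, Cxcl2 and Cxcl5, these included the mucosal chemokine Cxcl17, which fell from 23967 and 25129 to 3926 and 2927 (-2.86 ± 0.23), and the cytokine Il1a, from 4985 and 2742 to 46 and 41.3 (-6.38 ± 0.98). S100a9, a calprotectin subunit, read 99 and 61.5 on day 1 and 2.15 and 1.04 in the heterozygotes. No MHC class II gene passed among 6. The mucins Muc13 (-4.53 ± 0.41) and Muc20 (-5.38 ± 0.67) fell, making 4 of 10 mucin genes lower with Muc1 and Muc4.

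In cholesterol synthesis 6 of 19 genes fell and none rose (median -1.28, -1.12 in WT), with 11 lower with the trend and 3 after centring. The isomerase Idi1 fell from 1749 and 2817 to 339 and 310.0 (-2.77 ± 0.30), and the sterol enzymes Msmo1, Cyp51 and Sc5d fell by 2.22, 2.16 and 1.56 on the log2 scale. In endoplasmic reticulum folding 3 of 24 fell (14 with the trend, 0 after centring; median -0.66), against 8 in WT (median -0.98). The heterozygous arrays lay between the WT groups for 14 of the 21 members whose WT groups were apart, against 24.8% of all such genes. The secretory cell transcription factor Xbp1 fell from 26237 and 27856 to 12049 and 11131 (-1.22 ± 0.19) and stayed above WT on day 4 (5999 and 6079.9) by 0.94 ± 0.19 (trend adjusted p = 0.00894). Edem1 (-1.90 ± 0.18) and Herpud1 (-1.72 ± 0.20), which serve degradation of misfolded proteins, fell as well.

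Glycolysis genes fell in 5 of 13 cases and rose in 2 (10 and 1 in WT), where 4.48% of all genes fell and 5.07% rose in the heterozygotes. Aldolase Aldoa fell from 22357 and 22497 to 6864 and 6362 (-1.76 ± 0.18), with 4704 and 4515 in WT. Phosphoglycerate kinase Pgk1 fell by 1.39 on the log2 scale, beside Pfkl, Tpi1 and Pkm, while the regulatory kinase Pfkfb3 (3.18 ± 0.24) and the hexokinase Hk1 rose. Sugar and organic solute transporters rose in 4 of 17 cases and fell in 4 (3 and 2 without either WT day 4 array). The glucose transporter Slc2a12 rose from 93.4 and 91.7 to 6253 and 4442 (5.82 ± 0.26), beside Slc2a3, Slc5a11 and Slc16a12. The sodium-glucose cotransporter Slc5a1 fell from 5887 and 4522 to 449.7 and 397 (-3.61 ± 0.24). Slc2a1 fell from 8641 and 6559 to 2904 and 3056 (-1.34 ± 0.23) and stayed above WT on day 4 (1344 and 1446; trend adjusted p = 0.00593), and the monocarboxylate transporters Slc16a1 and Slc16a7 were the others that fell.

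Ion and water transport genes fell in 8 of 24 cases and rose in 2. The bicarbonate cotransporter Slc4a4 fell from 1964 and 2152 to 75.7 and 60.0 (-4.91 ± 0.22) and the carbonic anhydrase Car12 from 4315 and 4265 to 359 and 378 (-3.54 ± 0.24). Scnn1a, a subunit of the epithelial sodium channel, rose from 92.3 and 122 to 593 and 582 (2.46 ± 0.23), and the sodium pump subunit Atp1b1 was the other gene that rose. In amino acid transport none of 21 passed, and with the trend 4 rose (Slc1a1, Slc6a14, Slc7a5 and Slc7a11) and 1 fell (Slc1a5). Among endocytic receptors and surface peptidases 5 of 14 rose, the adaptor Dab2 and the megalin chaperone Lrpap1 beside Npl, Lrp2 and Mme, and the lysosomal protease Ctsl fell from 35346 and 35692 to 2553 and 2947 (-3.69 ± 0.34).

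Signalling and junction lists had calls in both directions, to be read beside the 9.55% of all genes that were called. In the WNT list 3 of 34 rose and 3 fell: Wnt5a (2.18 ± 0.25) and the receptor Fzd6 (2.49 ± 0.20) rose with Wnt11, and the receptors Fzd1 (-3.07 ± 0.32), Fzd7 and Ror2 fell. Without either WT day 4 array, 6 fell. Wnt7a read 511 and 275 on day 1 and 1002 and 857 in the heterozygotes (1.30 ± 0.36, adjusted p = 0.105). The receptor Fzd5 read 620.0 and 577 on day 1, 485 and 529 in the heterozygotes and 1617 and 2063 in WT and was lower than in WT on day 4 (difference -1.85 ± 0.22, trend adjusted p = 0.000819). Among 22 Notch pathway genes, 1 rose while 3 fell. The Notch target Hey2 rose from 12 and 14.7 to 171 and 190.1 (3.67 ± 0.21), short of 538 and 565 in WT, while Hey1 fell from 2485 and 2689 to 221 and 224 (-3.53 ± 0.18), near 200.4 and 204 in WT. The ligands Jag1 (-1.50 ± 0.24) and Dll4 (-2.45 ± 0.30) fell, and Dll4 was lower than in WT on day 4 (trend adjusted p = 0.0461). The Hedgehog list had 1 of 15 higher, Ihh, and 0 lower. In a limma fit of every probe set, a dimmer probe set of Boc (-2.71, adjusted p = 0.0311) and of Gas1 (-2.43, adjusted p = 0.0474) fell. The remaining probe sets of both genes did not pass.

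In the SOX list 2 of 14 rose and 2 fell. Sox5 rose from 20.3 and 14 to 843 and 787 (5.51 ± 0.26, adjusted p = 0.00732), with 1936 and 1702 in WT, and Sox4 fell from 20696 and 19270.1 to 3866 and 5144 (-2.16 ± 0.26), beside Sox9. In the prostaglandin list 4 of 20 rose and 1 fell. Cytosolic phospholipase Pla2g4a (1.84 ± 0.25) and the prostaglandin-inactivating reductase Ptgr1 (4.75 ± 0.28) rose, as did the prostaglandin exporter Abcc4. The receptor Ptger2 rose from 904 and 1169.9 to 3668 and 4691 (2.01 ± 0.29), below WT on day 4 (7262 and 9993; trend adjusted p = 0.0196). Cyclooxygenase Ptgs2 fell from 12423 and 10293 to 1027 and 1732 (-3.08 ± 0.38).

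In the junction list 2 of 29 rose and 2 fell. Claudin Cldn1 rose from 348 and 335 to 2471 and 1575 (2.53 ± 0.30), above WT on day 4 (897 and 1095; trend adjusted p = 0.0422), although 2 dim probe sets of the gene had the opposite sign, and Cldn8 rose (3.86 ± 0.56). The connexins Gja1 and Gjb2, given above, were the genes that fell. Immediate early genes, which also respond to tissue dissociation, rose in 2 of 28 cases (Nr4a1, 1.93 ± 0.19, and Nr4a2, 2.64 ± 0.24) and fell in 2 (Ier5, -4.35 ± 0.42, and Fosl2, -1.76 ± 0.24).

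**Figure D4:**
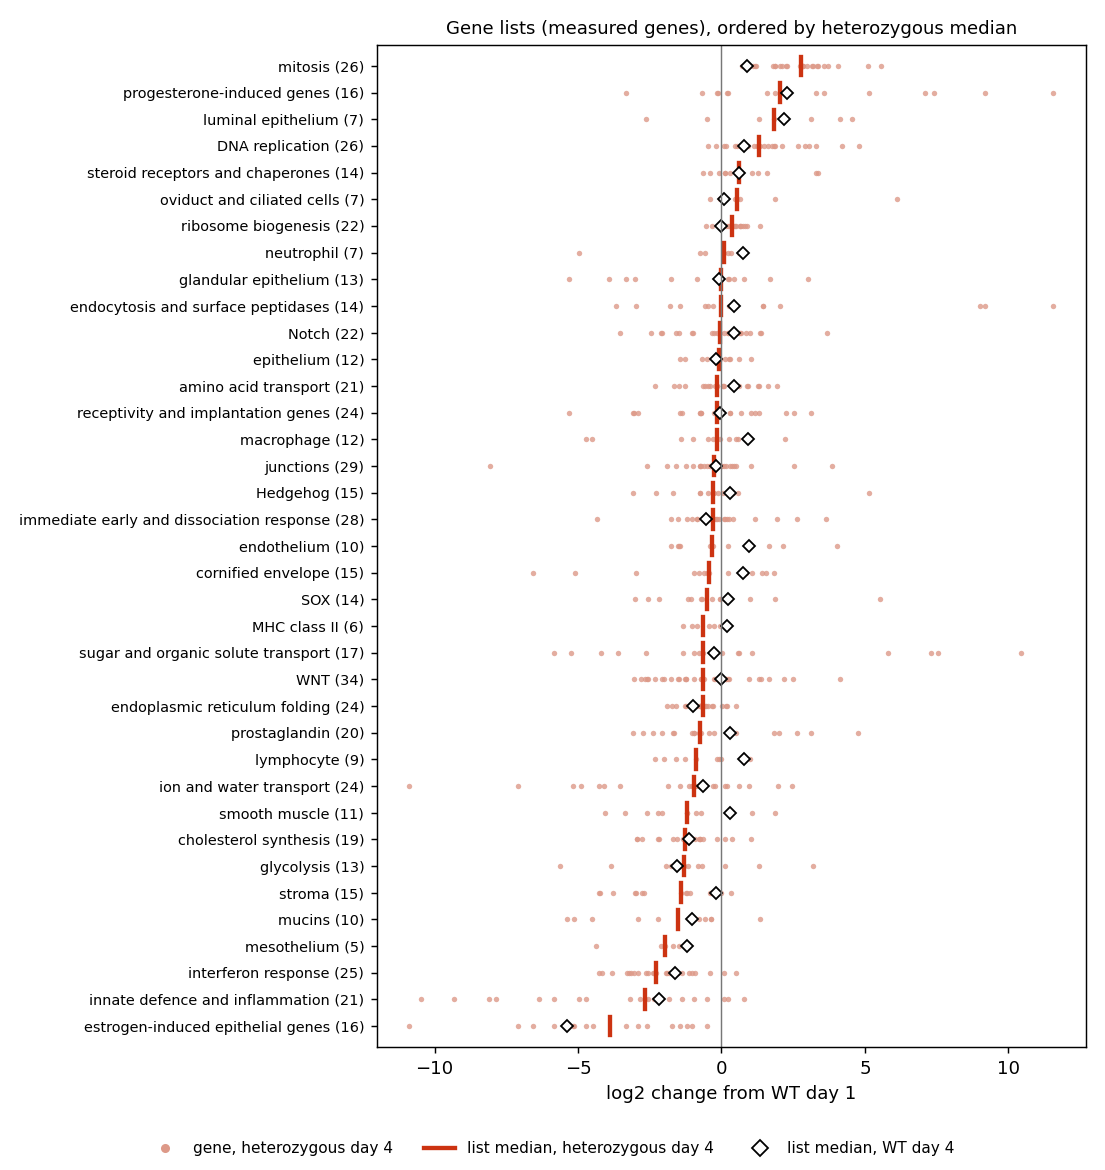
Log2 change from WT day 1 to Sox17 heterozygous day 4 for every measured gene (pale points) of 37 lists with at least 5 measured genes, with the list median (red bar) and the median change from WT day 1 to WT day 4 (open diamond). Lists are ordered by the red bar, from estrogen-induced genes at -3.90 to mitosis at 2.78, and the diamond for mitosis lies at 0.89.

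Some genes left the range of both WT groups. Both heterozygous arrays were above all 4 WT arrays for 1575 genes (8.66% of all genes). Of these, 343 (1.89% of all genes) were also called against day 1, and 76 of the 343 (0.418%) also passed against WT on day 4 with the trend. Below all 4 WT arrays the numbers were 2051 (11.27%), 300 (1.65%) and 46 (0.253%). Among these, 10 genes above and 7 below had a mean signal of at least 500 in the brighter group and a WT change under 0.25 of the heterozygous one. They were chosen after their values were seen, by the comparison they illustrate, and are given as a description. Id1, an inhibitor of bHLH transcription factors and a target of BMP signalling, read 1400.3 and 1923 on day 1, 2826 and 1024 in WT on day 4 and 20636 and 15568 in the heterozygotes (3.45 ± 0.56 over day 1). Id3, of the same family, read 706 and 565 on day 1, 1184 and 526 in WT and 6548 and 4304 in the heterozygotes (3.07 ± 0.49). Lipoprotein lipase Lpl read 48.5 and 38.8 on day 1, 54.7 and 18.5 in WT and 747 and 452 in the heterozygotes (3.71 ± 0.60). For these genes WT day 4 array 277 read higher than array 284, and both heterozygous arrays were above it.

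The collagen Col12a1 read 133 and 178 on day 1, 150.2 and 86 in WT and 1560.0 and 1169 in the heterozygotes. The cytokine Il6 read 242 and 134 on day 1, 344 and 244 in WT and 1223 and 1183 in the heterozygotes. Cyclin D1, Ccnd1, which drives entry into the cell cycle, read 465 and 339 on day 1, 613 and 440.5 in WT and 1701 and 1206 in the heterozygotes. The circadian factor Npas2, the aldo-keto reductase Akr1c13, Ly6g2 and Smim1 complete the higher genes, with changes over day 1 of 1.73, 1.79, 1.36 and 1.84. On the lower side, the carbonic anhydrase Car2 read 29762 and 31897 on day 1, 27399.5 and 20759 in WT and 7637 and 9246 in the heterozygotes (-1.87 ± 0.24). The WNT5A receptor Ror2 read 767 and 545 on day 1, 542 and 529 in WT and 70.8 and 156 in the heterozygotes (-2.61 ± 0.45). Ugdh, which makes a precursor of glycosaminoglycans, read 3888 and 3931 on day 1, 3019 and 3063 in WT and 1121 and 1129 in the heterozygotes. The other lower genes were the phosphatase Ptprr (-1.36), the thymosin Tmsb10 (-1.25), Slc22a23 (-1.56) and Paqr8 (-1.17).

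**Figure D5:**
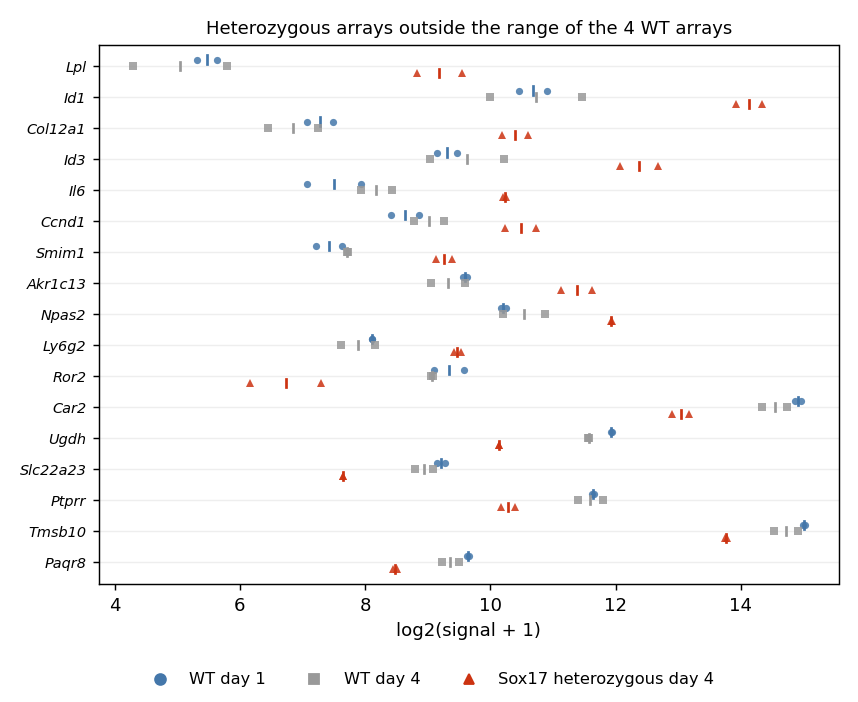
Signals as log2(signal + 1) on each array (points; bars are group means) for the 17 genes whose heterozygous arrays lay outside the range of the 4 WT arrays and met the further criteria of the text. The red triangles (Sox17 heterozygous day 4) lie to the right of the blue circles (WT day 1) and grey squares (WT day 4) for the 10 genes from Lpl to Ly6g2 and to the left for the 7 from Ror2 to Paqr8.

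Markers of other cell types were measured to see what else the preparations held. Their counts stand beside 5.07% of all genes that rose and 4.48% that fell. In bulk RNA, fewer cells of a type and less RNA per cell cannot be told apart. Of 15 stromal markers 2 fell and none rose (6 fell with the trend), and their summed signal was 13406 and 19249.8 on day 1, 1273 and 1798 in the heterozygotes and 3043 and 3371 in WT on day 4. Fbln1, an extracellular matrix protein, made up most of the day 1 sum (9585 and 9945, against 648 and 777 in the heterozygotes), and the proteoglycan Lum fell from 466 and 493 to 70.4 and 67.3. Smooth muscle markers summed to 1099 and 1101 on day 1 and 368 and 318 in the heterozygotes, with 2 of 11 lower (4 without either WT day 4 array). In WT on day 4 the smooth muscle sum was 1231 and 1287, not lower than on day 1. Acta2 fell from 505 and 504 to 115 and 125, with 143 and 191 in WT on day 4. Actg2 was the other that fell, and the defining marker Myh11 was under 50 on all 4 arrays. The part of such cells in the changes of the other lists was not tested.

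Endothelial markers summed to 294 and 450.5 on day 1 and 273 and 349.5 in the heterozygotes, with 2 of 10 called higher, Vwf (55.3 and 73.8 in the heterozygotes) and Plvap (20.3 and 35.5), and 0 without either WT day 4 array. Macrophage markers summed to 25115 and 23303 on day 1 and 14096 and 14568 in the heterozygotes, with 1 of 12 higher, Lyz2, and 2 lower, Cd68 and Itgam, while the defining marker Adgre1 read 44.7 and 51.1 on day 1 and 58.6 and 86.3 in the heterozygotes. Neutrophil markers summed to 245 and 128 on day 1 and 114 and 83.4 in the heterozygotes, and 1 of 7 fell, S100a9. Lymphocyte markers summed to 427 and 414 on day 1 and 246 and 177 in the heterozygotes, and erythrocyte markers to 19.5 and 33.4 and then 31.7 and 30.0, with no call among 9 and 3 genes. Mesothelial markers summed to 616 and 1048 on day 1 and 148 and 233 in the heterozygotes, and 1 of 5 fell, Msln.

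In the oviduct and ciliated cell list 1 of 7 rose. Ovgp1, the oviduct glycoprotein, rose from 165 and 288 on day 1 to 20932 and 10977 (6.11 ± 0.47, adjusted p = 0.0111), with 5497 and 7309 in WT on day 4. The other members, among them the cilium genes Dnah5 (40.6 and 29.8 on day 1, 53.5 and 56.5 in the heterozygotes) and Ccdc39 (53.4 and 48.7 on day 1, 77.4 and 72.4 in the heterozygotes), had no call.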

How the data were processed

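Uterine epithelial RNA (100 ng per sample) was amplified, labelled with biotin and hybridised to 1-colour arrays, per the labels' protocols. Groups came from the titles, and 3 groups of 2 arrays were fitted. The deposited probe set signals are an intensity on a linear scale. Transcriptome Analysis Console, Affymetrix Expression Console and RMA stand in the submitters' processing notes, and the sources used here do not say which of them made these values. RMA normally gives log2 values with equal quantiles, whereas these are linear, have a mean of 500 on every array after trimming 2% at each end, and differ in their quantiles. Detection calls were not used, so signals under 50 were treated as dim.

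Of 45101 probe sets, 34945 had 1 gene symbol and were used, with the brightest probe set standing for each of 18193 genes. Values were log2(signal + 1), without filter or further scaling, so folds of dim genes are understated. They were fitted in limma 3.58.1 (R 4.3.3), all 6 arrays, 1 coefficient per group, eBayes at default settings, Benjamini-Hochberg over all genes, called at an adjusted p under 0.05. Tested on simulated data of this comparison, the default fit recovered none of the changes where few genes were changed, and there the trend fit's share of false calls was above its nominal rate; where many were changed, both recovered nearly all large changes of bright genes. The comparison of the day 4 groups was not simulated. The smallest p that exact permutation of 2 against 2 arrays allows is 0.333.

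Named genes were Sox17, the 15 largest increases and decreases, up to 4 genes of smallest p in each of 38 lists, 8 genes per position class and 22 fixed names. Adgre1, Aqp5, Cdk1, Fgf18, Fzd5, Hbegf, Hdc, Krt8, Myc, Padi1, Rrm2 and Slc2a1, the remaining members of counts of 5 or fewer and the genes beyond the WT range were named after their values were seen. The comparison, the lists and the names were chosen with earlier results of these data known. Promoters were matched by symbol in a RefSeq table (GRCm38.p6), and motifs searched on both strands. Alternatives were other scalings, filters, pseudocounts, variance priors, probe set summaries and leaving out each array.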

Additional observations from a re-analysis of the deposited data

Results flagged for a closer look

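Of all genes, 3 were called against WT day 1 in both day 4 groups with opposite directions, so that the heterozygous and WT changes differed in sign; these 3 were picked out by that difference. Bub1, the mitotic checkpoint kinase, rose by 3.19 ± 0.23 in the heterozygotes and changed by -2.51 ± 0.23 in WT, a difference of 5.70 between the day 4 groups (default adjusted p = 0.125, trend adjusted p = 0.00912). Its WT signals were all under 50, 17.2 and 23.6 on day 1 and 2.67 and 2.79 on day 4. The other probe set of Bub1 read 7.24 and 11.9 on day 1 and 6.98 and 17.6 in WT on day 4, which overlap, so the WT fall rests on dim signals of 1 probe set. Me3, the mitochondrial NADP-dependent malic enzyme, read 114 and 121 on day 1, 43 and 49.8 in the heterozygotes and 404 and 360.4 in WT, a difference of -3.02 (default adjusted p = 0.151, trend adjusted p = 0.00692); with the trend its change from day 1 had an adjusted p of 0.0708. Rab27a, a small GTPase of secretory granule release, read 447 and 507 on day 1, 1077 and 1089 in the heterozygotes and 215 and 174 in WT, a difference of 2.48 (default adjusted p = 0.151, trend adjusted p = 0.000515).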

How the results depend on the processing

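Among 193 named genes, most of the 3072 values over all settings kept their direction and their side of the threshold (2120), while 863 lost the call, 55 gained one and 34 changed sign. Of heterozygotes against day 1, the higher genes numbered 538 after centring each array on its median, 1776 without the dimmest genes (by a filter on the lowest part of the mean signal), 1425 with a pseudocount of 32, 2124 with the intensity trend and 2616 with the trend and only the 4 arrays compared. The lower genes numbered 1419, 1335, 1756 and 2282 under the last 4 of these. WT day 4 against WT day 1 gave 1408 calls after centring, 3849 without the dimmest genes, 4506 with the trend, and 616 or, with the trend, 3764 from only its own 4 arrays. The day 4 groups differed in 5 genes after centring, 11 without the dimmest genes, 4 with the larger pseudocount, 640 with the trend and 730 with the trend and their 4 arrays only. Leaving out each array in turn gave 0 to 1005 higher and 0 to 1072 lower genes, 0 to 2459 calls in WT and 0 between the day 4 groups. With the trend as well, a combination chosen after seeing the data, these ranges were 1183 to 2666, 1076 to 2275, 3177 to 5496 and 110 to 1397, the 110 without heterozygous array 253. In these fits the lone array of a group is assumed to vary like the others.

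Other probe sets of a gene had the opposite sign for Atp1b1 (-0.13), Ccdc39 (-0.34), Cldn1 (-1.46 and -0.36), Col12a1 (-0.81 and -0.73), Edn3 (0.92), Esr1 (-0.24), Fzd5 (0.41, and 0.088 for the mean of its probe sets), Myh11 (0.75), Podxl (-0.35), Ptch1 (0.79, and 0.21 for the mean), Sc5d (0.33), Sox4 (0.53), Sox9 (0.64), Tmsb10 (0.040), Ttr (-0.71) and Top2a (-0.34). Changes near 0 turned when 1 array was left out for Crabp2 (-0.30 to 0.87 over the arrays left out), Egfl6 (-0.46 to 0.56), Foxa2 (-0.51 to 0.49), Tm4sf1 (-0.94 to 0.59) and Ttr (-0.39 to 0.83), and with another scaling for Foxa2 (0.13 and 0.14), Fst (0.012 and 5e-04), Krt8 (0.094) and Ptch1 (0.020). The cause was not tested. No paired analysis was possible because the groups share no replicate number. With 2 arrays per group the precision is limited by their number, and signals under 50 have little order.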
